A study of Mus musculus with 2 samples.

Results

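The miR-29 and miR-148/miR-152 families are encoded in the mouse by 7 microRNA (miRNA) genes, Mir29a, Mir29b-1, Mir29b-2, Mir29c, Mir148a, Mir148b and Mir152. They were found by Ensembl identifier and taken as a group because both families are known to repress DNA methyltransferases, and all 7 had a row among the 1973 miRNA genes counted. Their sense-strand counts were read in forebrain of B6NCrl mouse embryos at embryonic day 11.5, in RNA shorter than 30 bases. The series holds 1 group with 2 libraries, labelled biological replicates 1 and 2, each from tissue of many embryos of both sexes pooled together (109 and 88 embryos), with the same donor entry. No allele, treatment, other age or control group is part of it, so whether these miRNAs rise or fall with age was not measured. In pooled whole tissue, fewer cells of a type and less RNA per cell cannot be told apart.

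A mature miRNA is cut from 1 of the 2 arms (5p or 3p) of a hairpin transcript and finds its targets mainly by its seed, bases 2 to 8, which pairs with messenger RNAs that are then repressed. DNMT3A and DNMT3B place methyl groups on unmethylated DNA and DNMT1 copies the pattern after each division. miR-29 is known to repress the messages of DNMT3A and DNMT3B, of collagens and, in mature neurons, of pro-apoptotic proteins, and in brain it is known as a late miRNA that rises as neurons mature. miR-148 and miR-152 are known to repress DNMT1, and miR-148 also DNMT3B. At the age studied here the forebrain wall consists largely of dividing progenitors.

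The mature 3p sequences show which members a read can be assigned to. They are given 5′ to 3′ from RefSeq (build GRCm38.p6) with the seed in capitals, as miRNAs of 1 seed are grouped into a family.
miR-29a-3p: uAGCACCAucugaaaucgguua
miR-29b-3p, from Mir29b-1 and from Mir29b-2: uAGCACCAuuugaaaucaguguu
miR-29c-3p: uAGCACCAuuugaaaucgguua
miR-148a-3p: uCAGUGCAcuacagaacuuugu
miR-148b-3p: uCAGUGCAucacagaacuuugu
miR-152-3p: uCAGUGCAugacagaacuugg

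All 4 miR-29 genes share the seed AGCACCA and all 3 genes of the other family the seed CAGUGCA. Each of these seeds occurred in 3 of the 1674 distinct mature sequences in the RefSeq table, and no other mouse gene in it carried either. With positions counted from 1 at the 5′ end, miR-29a-3p differs from miR-29c-3p by the single substitution C10U. The miR-29b and miR-29c sequences are identical over their first 17 bases and then differ by A18G, G21U and U22A, read from miR-29b to miR-29c. From miR-148a-3p to miR-148b-3p the changes are C9U and U10C, and from miR-148b-3p to miR-152-3p they are C10G and U20G. The members of a family thus match through the seed and differ behind it. The 5p arms are less alike. miR-148a-5p and miR-148b-5p share the seed AAGUUCU, while the 5p arms of Mir152 (AGGUUCU), Mir29a (CUGAUUU), Mir29b-1 (CUGGUUU), Mir29b-2 (UGGUUUC) and Mir29c (GACCGAU) each have their own. The seed UGGUUUC of miR-29b-2-5p is also that of miR-6338, whose gene Mir6338 had no count in either library. The deposited counts are per gene, so which arm the reads came from was not measured.

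Mir29b-1 and Mir29b-2 carry the identical 3p arm in different hairpins, shown here with that arm in capitals.
Mir29b-1 hairpin: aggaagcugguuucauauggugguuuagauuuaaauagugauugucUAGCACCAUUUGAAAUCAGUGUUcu
Mir29b-2 hairpin: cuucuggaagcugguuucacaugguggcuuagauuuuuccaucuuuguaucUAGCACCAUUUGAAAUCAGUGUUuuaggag
The longest stretch the pair shares is 25 bases and contains the whole 3p arm. A read of that arm matches both places, and reads that match several places are not in the gene counts but in a row of their own, which held 1165381 reads in replicate 1 and 1001079 in replicate 2. How many of those were miR-29b-3p cannot be read from the files. The counts of Mir29b-1 and Mir29b-2 may thus understate these genes, by how much is unknown, and do not measure miR-29b-3p. Mir29c shares 22 bases with Mir29b-1, but its complete 3p arm is distinct. Among the 1005 hairpins in the RefSeq table, the longest stretch shared with another hairpin was 14 bases for Mir29a. For Mir148a and Mir148b it was 15 (with each other) and for Mir152 it was 13. Places outside these hairpins were not searched, so other sites that could share reads with the members are not known.

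The miR-29 genes lie in 2 pairs, and the miR-148/miR-152 genes singly. On mm10, Mir29a (ENSMUSG00000065610.1) stands at chr6:31062660-31062747 on the minus strand and Mir29b-1 (ENSMUSG00000065604.1) at chr6:31063023-31063093, 275 bases away on the same strand. Mir29b-2 (ENSMUSG00000065412.2) stands at chr1:195037040-195037120 on the plus strand, and Mir29c (ENSMUSG00000065548.1) follows 426 bases later at chr1:195037547-195037634. Both hairpins of the chromosome 1 pair lie in an exon of the noncoding transcript A330023F24Rik on their own strand and in an exon of 1 annotated transcript of Cd46 on the opposite strand. Mir29b-1 overlaps 2 bases of an exon of the noncoding RNA Gm27019, and Mir29a overlaps no other annotated gene. Mir148a (ENSMUSG00000065505.1, chr6:51269812-51269910, minus strand) lies between genes. Mir148b (ENSMUSG00000065560.1, chr15:103285125-103285221) lies in an intron of Copz1 and Mir152 (ENSMUSG00000065515.1, chr11:96850393-96850465) in an intron of Copz2, each on the strand of its host. Copz1 and Copz2 are related genes for the zeta subunit of the COPI vesicle coat. None of the 7 genes had a read on the opposite strand (0 counts in both libraries together), the strand on which Cd46 lies at the chromosome 1 pair.

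**Figure D1:**
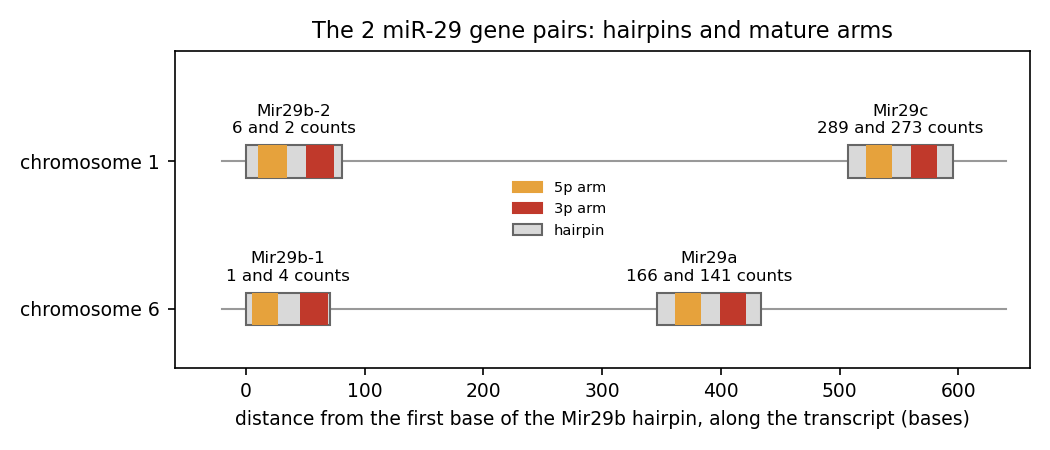
The 2 pairs of miR-29 genes drawn to scale along their transcripts, with hairpins in grey, 5p arms in orange and 3p arms in red, and the sense counts of replicates 1 and 2 above each hairpin. In each pair the Mir29b gene has at most 6 counts in a library, while its neighbour has 141 or more.

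Levels are CPM, in which the sense counts of each library over all miRNA gene rows are scaled to the same sum, 1000000. These sums were 1281201 in replicate 1 and 1297647 in replicate 2. At this depth 3 counts, the upper limit that a count of 0 allows, are 2.34 and 2.31 CPM. The RNA was shorter than 30 bases and the annotated arms of these genes have 21 to 25 bases. Levels were not divided by the length of the hairpin, and read lengths were not measured here. The order of the 7 genes was the same when they were. Intervals in brackets are 95% Wilson intervals, and they cover counting error only, since copies made by PCR are not independent molecules. Values with ± are means with the SD of the 2 libraries (n = 2).

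Of the miR-148/miR-152 family, Mir148a, known from fat and liver metabolism as well as from DNA methylation, had 626 counts or 489 CPM (452 to 528) in replicate 1 and 599 counts or 462 CPM (426 to 500.1) in replicate 2. Its mean level was 475 ± 19.1 CPM, rank 145 of all miRNA genes. Mir148b had 508 counts or 397 CPM (363 to 433) in replicate 1 and 599 counts or 462 CPM in replicate 2, with a mean of 429 ± 46.0 CPM and rank 150. Mir148a was thus ahead of Mir148b in replicate 1 only, with the same count for both in replicate 2. Mir152 had 118 and 106 counts, 92.1 CPM (76.9 to 110.3) and 81.7 CPM (67.5 to 98.8). Its mean of 86.9 ± 7.36 CPM took rank 240, below both relatives in each library.

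Of the miR-29 family, Mir29c had the highest level, with 289 counts or 226 CPM (201 to 253) in replicate 1 and 273 counts or 210.4 CPM (187 to 237) in replicate 2. Its mean was 218 ± 10.7 CPM, rank 188. Mir29a had 166 and 141 counts, 129.6 CPM (111 to 151) and 109 CPM (92.1 to 128), with a mean of 119 ± 14.8 CPM and rank 225. Neither range nor interval of these neighbours in sequence overlapped, with Mir29c above Mir29a in both libraries. Mir29b-2 had 6 and 2 counts, or 4.68 and 1.54 CPM, and Mir29b-1 had 1 and 4 counts, or 0.781 and 3.08 CPM. These 2 genes changed places between the libraries, and their means of 3.11 ± 2.22 and 1.93 ± 1.63 CPM stand at the level of 3 counts.

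**Figure D2:**
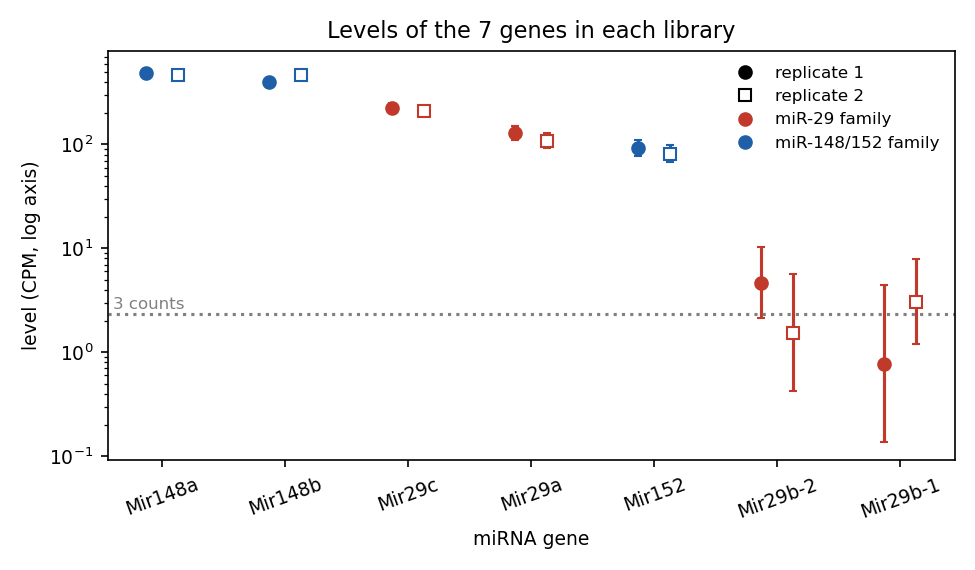
Level of each gene in CPM on a log axis, filled circles for replicate 1 and open squares for replicate 2, with 95% Wilson intervals and a dotted line at 3 counts. Mir148a and Mir148b lie highest, between 397 and 489 CPM, and the Mir29b genes lie about the dotted line.

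In order of mean level the genes ran Mir148a, Mir148b, Mir29c, Mir29a, Mir152, Mir29b-2, Mir29b-1. Of the 6 pairs of neighbours in this order, 4 had separate ranges in the same order in both libraries, and the exceptions were Mir148a with Mir148b and Mir29b-2 with Mir29b-1. With 2 libraries, a two-sided sign-flip permutation test cannot give a p below 0.5, so these orders are descriptions with the spread of the libraries beside them. The closest of the separated pairs was Mir29a with Mir152, at 109 CPM for the lower library of Mir29a and 92.1 CPM for the higher library of Mir152.

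Within families the log2 ratios of counts give the sizes. Mir29c stood above Mir29a by a log2 ratio of 0.80 in replicate 1 (exact 95% interval 0.52 to 1.08) and 0.95 in replicate 2 (0.65 to 1.26), in the mean 0.88 ± 0.11 or 1.84-fold. Mir148a against Mir148b gave 0.30 (0.13 to 0.47) in replicate 1 and 0 (-0.17 to 0.17) in replicate 2, in the mean 0.15 ± 0.21, so that the difference was smaller than its spread between libraries. Mir148a exceeded Mir152 by 2.41 (2.12 to 2.70) and 2.50 (2.20 to 2.81), or 5.48-fold in the mean. Mir148b exceeded Mir152 by 2.11 (1.81 to 2.41) and by the same 2.50 in replicate 2. Among these 4 ratios, Mir148a over Mir148b was thus the only one whose interval reached 0 in either library.

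The genes of a miR-29 pair, which lie 275 and 426 bases apart, had counts that were far apart. Mir29a had 166 times the counts of Mir29b-1 in replicate 1, on a single count of the latter (log2 ratio 7.38, exact interval 4.88 to 12.7), and 35.3 times in replicate 2 (5.14, 3.75 to 7.04). Mir29c had 48.2 times the counts of Mir29b-2 in replicate 1 (5.59, 4.45 to 7.05) and, on 2 counts, 136.5 times in replicate 2 (7.09, 5.23 to 10.1). The counts of the Mir29b genes lack reads of their shared arm, so these ratios do not compare the output of the hairpins. Summed, the chromosome 1 pair exceeded the chromosome 6 pair by a log2 ratio of 0.82 (0.54 to 1.10) and 0.92 (0.63 to 1.22). These sums lack the same reads and consist mostly of Mir29c and Mir29a, so they do not compare the output of the pairs.

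Summed over its members, the miR-148/miR-152 family had 1252 and 1304 counts, 0.0977% (0.0925 to 0.103%) and 0.1005% (0.0952 to 0.106%) of the sense counts, or 0.0991% ± 0.00196. The miR-29 family had 462 and 420 counts, 0.0361% (0.0329 to 0.0395%) and 0.0324% (0.0294 to 0.0356%), or 0.0342% ± 0.00261. The intervals of the families did not overlap in either library. The miR-148/miR-152 sum exceeded the miR-29 sum by a log2 ratio of 1.44 (1.28 to 1.60) in replicate 1 and 1.63 (1.47 to 1.80) in replicate 2, in the mean 1.54 ± 0.14 or 2.90-fold. This holds for reads that map to a single place. The miR-29 sum lacks reads of miR-29b-3p, whose number is unknown, so the ratio of all miR-148/miR-152 to all miR-29 molecules cannot be given.

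Set among all miRNA genes, 5 of the 7 reached 2 CPM in each library, as did 424 of the 1973 genes, and a further 1288 genes had no count. The median level was 119 CPM over the 7 genes, which include the Mir29b genes that did not reach 2 CPM in both libraries. Over the 5 that did, it was 218 CPM, the level of Mir29c, against 143 CPM over the 424 detected genes. Of the 7 genes 3, Mir148a, Mir148b and Mir29c, stood above 143 CPM. Together the 7 genes took 0.133% ± 0.000654 of the counts, whereas the 10 most abundant genes took 41.1%. Nearest in mean level over the 2 libraries were Mir195a (477 CPM) above and Mir181a-2 (470.2 CPM) below Mir148a, and Mir330 (435 CPM) and Mir669o (427 CPM) about Mir148b. Mir29c stood between Mir450b (222 CPM) and Mir3072 (209 CPM), and Mir29a between Mirlet7c-1 (119 CPM) and Mir145a (118 CPM). About Mir152 were Mir192 (87.3 CPM) and Mir1955 (86.4 CPM). Mir29b-2 stood below Mir7648 (3.48 CPM) and tied with Mir291b (3.11 CPM), and Mir29b-1 stood below Mir7062 (1.94 CPM) and tied with Mir669f (1.93 CPM). With 1 group, a pattern across samples could not be compared.

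**Figure D3:**
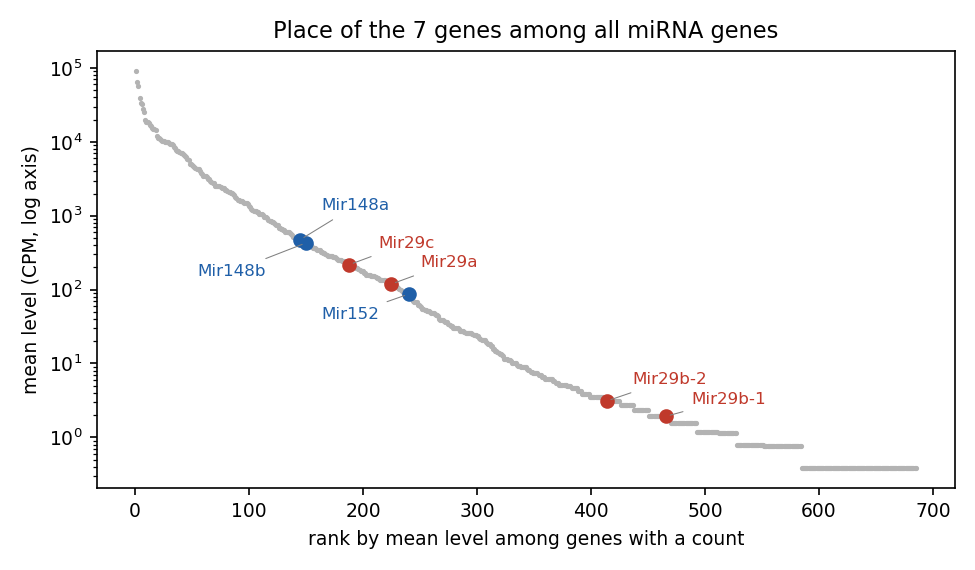
Mean level of each miRNA gene with a count, in CPM on a log axis, against its rank, with the 7 genes in colour (red miR-29, blue miR-148/miR-152). The 5 genes with 2 CPM or more in both libraries lie at ranks 145 to 240, and the Mir29b genes at ranks 414 and 466.

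The 5 members with 10 counts or more in total had log2 ratios of replicate 1 over replicate 2 from -0.22 to 0.25. Mir148b was lower in replicate 1 than in replicate 2 (397 against 462 CPM), by a log2 ratio of -0.22 (exact interval -0.39 to -0.05, adjusted p = 0.0451 in an exact binomial test of the counts against the library totals, Benjamini-Hochberg adjustment over 398 genes). It was the 1 member called at an adjusted p under 0.05 of the 5 with 10 counts or more in total, against 28.4% of all tested genes (113 of 398). With a 2-fold minimum 0 of the 5 were called, against 2.76% of all tested genes, and 1 of the 5 had an unadjusted p under 0.05 in that binomial test. The call share of the members was thus near the background. The test covers counting error alone, and genes it called had a median of 5242 counts against 162 for the others. With the spread between libraries that edgeR estimated (biological coefficient of variation 11.4%), its exact test on the same library totals called 8 of 398 genes, 20 at an unadjusted p under 0.05, and Mir148b was not among the 8 (adjusted p = 1). That spread came from the same 2 libraries that were compared, so a gene that differs like most others cannot be called. This test therefore cannot decide whether Mir148b differed.

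The other 4 tested members were nominally higher in replicate 1 and did not pass the binomial test. The log2 ratio was 0.25 (-0.08 to 0.59, adjusted p = 0.304) for Mir29a and 0.10 (-0.14 to 0.34, 0.652) for Mir29c. It was 0.08 (-0.08 to 0.25, 0.568) for Mir148a and 0.17 (-0.22 to 0.57, 0.613) for Mir152. The intervals allow a difference of up to 0.59 for Mir29a and 0.25 for Mir148a, so equality was not shown. The median over the 5 tested members was 0.10, against 0.07 over all 398 tested genes. Of the 113 called genes 82 were higher in replicate 1, and with TMM scaling, which brings the bulk of the genes to the same level, 54 of 106. With that scaling the log2 ratios of Mir29c and Mir148a became 0.03 and 0.01, that of Mir29a 0.19 and that of Mir152 0.11, and Mir148b stood at -0.29. Mir29b-1, at 1 and 4 counts (log2 ratio interval -7.60 to 1.36), and Mir29b-2, at 6 and 2 counts (-0.88 to 4.94), had too few counts to be tested.

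**Figure D4:**
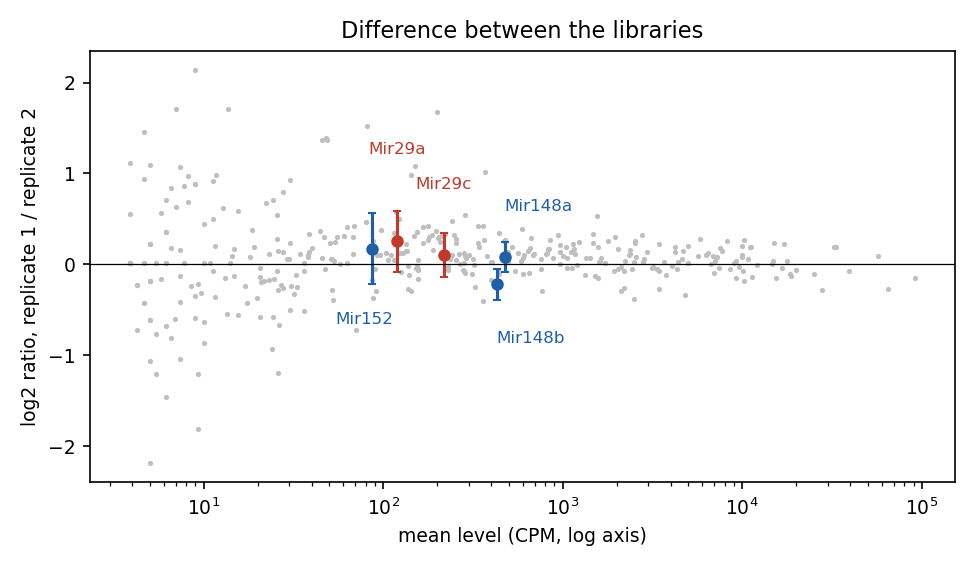
Log2 ratio of replicate 1 over replicate 2 against mean level (CPM, log axis) for the 398 tested genes in grey and the 5 tested members in colour, with exact 95% intervals. Mir148b alone among the members has an interval that stays below 0, and all 5 lie among the grey points.

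Markers of other tissues were read in the same libraries, and each list's summed level was higher in replicate 1. Tissue behind the forebrain, marked by miRNAs of the Hox clusters, had 198 and 75.5 CPM summed over 5 genes, of which 4 reached 2 CPM in both libraries and Mir196a-1 had no count. Of the erythroid markers, Mir451a had 493 and 244 CPM, while Mir144, from the same cluster, had 88.2 and 91.7 CPM. Summed smooth muscle and mesenchyme markers (4 of 4 detected) had 14631 and 13228 CPM, the endothelial Mir126a 34601 and 30323 CPM, and leukocyte markers (2 of 2 with a row) 382 and 337 CPM. The forebrain and neural markers had 21744 and 18512 CPM, with 6 of 7 detected, of which Mir92b alone had 18428 and 15730 CPM. In this list Mir124a-2 (16.4 and 24.7 CPM) and Mir124a-3 (3.12 and 3.85 CPM) were nominally lower in replicate 1, and the other genes with a row higher. The Mir124a genes, the Mir9 genes and Mir199a-1 have copies with alike mature arms. Their counts, and the sums of their lists, can thus be too low. In the exact binomial test the calls higher in replicate 1 were 2 of 3 tested posterior, 1 of 2 erythroid and 3 of 4 smooth muscle and mesenchyme markers. They were 1 of 1 endothelial, 0 of 2 leukocyte and 3 of 5 forebrain and neural markers, and none was called lower. Over all tested genes 28.4% were called (113 of 398), 82 of them higher in replicate 1. Called genes had a median of 5242 counts against 162 for the others, and the lists differ in counts. With TMM scaling 54 of 106 called genes were higher in replicate 1. The smooth muscle and mesenchyme calls were then 2, and the forebrain and neural calls 2. With edgeR's exact test, which called 8 of the 398 genes, the calls were 2 posterior markers and 1 erythroid marker, and 0 in the other lists. Their part in the levels of the 7 genes, or in the difference of Mir148b, was not tested.

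Each of 5 other miRNAs known to repress DNA methyltransferases lay above all 7 genes within each library. For 4 of them the range of the libraries was also clear of all 7. All 5 were detected, with a median of 5787 CPM, against 429 CPM for the miR-148/miR-152 family. The median of the miR-29 family was 61.1 CPM with the Mir29b genes, whose counts lack their shared arm, and 169 CPM over Mir29a and Mir29c. Mir126a of blood vessel endothelium had 32462 ± 3025 CPM, Mir143 of smooth muscle 7511 ± 656 CPM and Mir342 5787 ± 799 CPM. Mir140, known from cartilage, had 4241 ± 286 CPM and Mir185 520.6 ± 49.7 CPM. The lowest of them, Mir185, had 556 and 485 CPM in the libraries, a range that overlapped that of Mir148a (489 and 462 CPM). In the exact binomial test 5 of these 5 were called higher in replicate 1, with a median log2 ratio of 0.19. Of all tested genes 28.4% were called (113 of 398, of which 82 were higher in replicate 1). Called genes had a median of 5242 counts against 162 for the other tested genes, and these 5 had 630 or more in each library. The shares are thus of genes with unlike counts and do not set this list apart. With TMM scaling 4 of the 5 were called, and with edgeR's exact test 0 of the 5.

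miRNAs known to rise late in brain maturation, as miR-29 is, ranged from 1.56 to 1143 CPM in mean level. Of 11 genes 10 reached 2 CPM in each library. The median over all 11 was 126 CPM. The 143 CPM over all detected genes is of an unlike set, without genes below 2 CPM in either library. Mir219a-1, known from oligodendrocytes, had 1143 ± 125 CPM and its copy Mir219a-2 167 ± 33.9 CPM. Mir128-1, known from neurons, had 189 ± 14.3 CPM and Mir338, also of oligodendrocytes, 156 ± 3.60 CPM. Mir29c, at 218 ± 10.7 CPM, lay above Mir128-1 in both libraries (226 and 210.4 against 199 and 179 CPM). Mir29a lay below Mir338 in both (129.6 and 109 against 158 and 153 CPM). The lowest were the genes of miR-124, known from neurons, with 20.5 ± 5.85 CPM for Mir124a-2, 3.49 ± 0.517 CPM for Mir124a-3 and, on 3 and 1 counts, 1.56 ± 1.11 CPM for Mir124a-1. Mir219a, Mir128, Mir138 and Mir124a are encoded by several genes with alike or identical mature arms, so their counts can be too low like those of Mir29b. In the exact binomial test 2 of 9 tested genes of this list were called higher in replicate 1 and 0 lower, against 28.4% of all tested genes called. That share, too, is of genes with unlike counts.

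**Figure D5:**
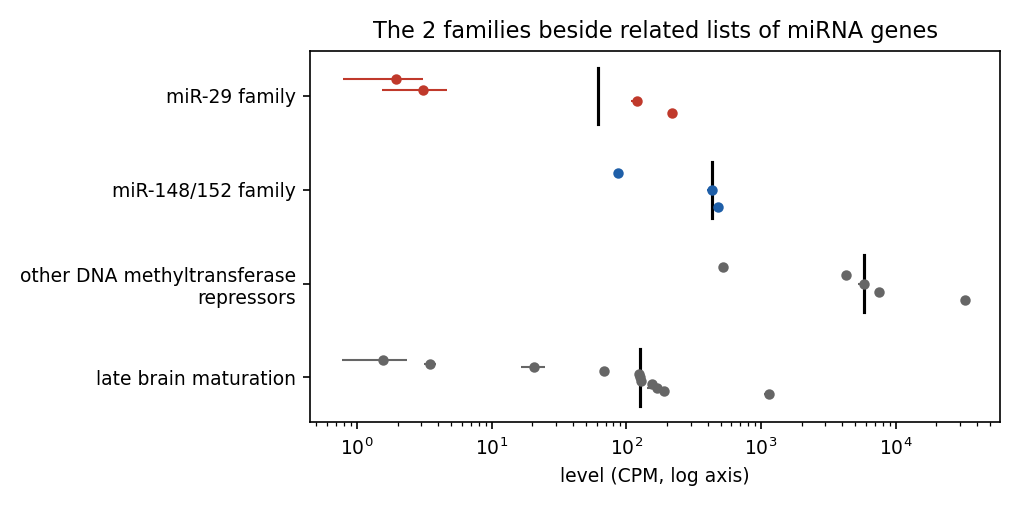
Mean level in CPM (log axis) of each gene of the 2 families and of 2 related lists, with lines from the lower to the higher library and black bars at the list medians. The other DNA methyltransferase repressors lie at 520.6 CPM and above in mean level, with the range of the lowest, Mir185, overlapping that of Mir148a, and the late brain list spans the range of both families.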

How the data were processed

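MicroRNA-seq reads of RNA under 30 bases from 2 pooled forebrain samples were mapped to mm10 and counted per gene of GENCODE M4, per the labels and the deposited text files. Which aligner and counter were used is not given in the sources used here. Raw counts were deposited for both strands, the sense strand and the opposite strand. The first 4 rows (unmapped, multimapping, no feature, ambiguous) were left out of totals, and multimapping reads were 41.7% and 39.1% of mapped reads. Sense counts were scaled to CPM.

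The members and gene lists were chosen with earlier results of these data known. Identifiers were matched without version to GENCODE M21 on GRCm38, the assembly of mm10 (1894 of 1973 matched). All 7 members had RefSeq hairpins at the same coordinates. The text names the members, the gene next above and below each in mean CPM, the 5 other repressors, the 4 highest of the late brain list, and genes sharing a seed or lying within 10 kb. The Mir124a genes were named after their values were seen. Marker genes, host genes and the genes of the closing section are named beside these. Mir9-1 and Mir142a had no row under those names.

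An exact binomial test, two-sided, compared the libraries for the 398 genes with 10 counts or more in total, with Benjamini-Hochberg adjustment at 0.05 and 0.5 counts added for log2 ratios. Intervals of ratios are Clopper-Pearson. The binomial test was tried on simulated counts with counting error only and changes of 2-fold or more. That setting holds neither the wider spread of these libraries nor differences as small as that of Mir148b. TMM factors and the exact test came from edgeR 4.0.16, in which the dispersion was estimated with both libraries as 1 group, and size factors from DESeq2 1.42.0, in R 4.3.3. Python 3.11.15 with scipy 1.17.1 did the rest. The binomial p-values measure only the spread between reads of these libraries. Those of edgeR's exact test also include the dispersion estimated from the same 2 libraries. The alternatives were another strand column, scaling, filter, pseudocount or test, each library alone, and, added after seeing the data, levels per hairpin length, TMM scaling for the gene lists and edgeR's exact test with TMM factors.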

Additional observations from a re-analysis of the deposited data

How the results depend on the processing

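With edgeR's exact test in place of the binomial test, 8 genes in place of 113 differed between the libraries, and 7 in place of 11 by 2-fold or more. With TMM factors as well these counts were 8 and 6, against 106 and 11 in the binomial test under TMM. The share of the miR-29 family became 0.0581% and that of the miR-148/miR-152 family 0.168% without the 10 most abundant genes, which shrinks the total by construction, and the latter share became 0.0957% with both strands counted. The log2 ratio of the miR-148/miR-152 sum to the miR-29 sum became 3.52 as a difference of mean log2(CPM + 1), in which the low Mir29b genes weigh as much as the others, and was 1.56 without them. With each library alone, this ratio ran from 1.44 to 1.63, the miR-29 share from 0.0324 to 0.0361%, the miR-148/miR-152 share from 0.0977 to 0.1005%, Mir29c over Mir29a from 0.80 to 0.95 and Mir148a over Mir148b from 0 to 0.30. The call of Mir148b in the binomial test was kept under TMM scaling (0.00519), DESeq2 size factors (0.00569), both strands (0.0359) and a pseudocount of 5. It was absent in edgeR's exact test with and without TMM factors (adjusted p = 1), whose dispersion came from the same 2 libraries and which cannot decide it. No tested member changed direction under any alternative run. No paired analysis was possible because the series holds 1 group. Depth limits the Mir29b genes, at 1 to 6 counts, and multimapping limits them further.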

Other observations

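The seed of the miR-148/miR-152 family overlaps that of the miR-130/miR-301 family, shifted by 1 base, a relation looked up after the values were seen. Bases 3 to 8 of the miR-148/miR-152 3p arms, AGUGCA, are bases 2 to 7 of the mature arms of 7 other genes in the RefSeq table, of which 6 had a row. Mir130a had 39525 ± 1495 CPM (SD, n = 2), Mir130b 10237 ± 938 CPM and Mir301 3458 ± 120 CPM, while Mir130c, Mir6341 and Mir6389 had no count. Mir301b, at 283 ± 10.1 CPM, was not returned by this match in the RefSeq table and is not in the sum. The sequence of its 3p arm was not checked apart from this match, so its absence does not show that the arm lacks AGUGCA. The count of genes and the sum are thus those of this match and not of the whole miR-130/miR-301 family. Summed, these 6 genes reached 51415 and 55026 CPM in the libraries of replicates 1 and 2, which were 52.6 and 54.8 times the summed levels of Mir148a, Mir148b and Mir152.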
